A study of Arabidopsis thaliana with 7 samples.

Results

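The plastid genome of Arabidopsis thaliana is represented in this study by 133 genes, chosen as every entry of the deposited FPKM tables whose identifier begins with ATCG, out of 33557 genes in those tables. They are 88 protein-coding entries, 8 ribosomal RNA entries and 37 transfer RNA entries, and none of them is among the 32548 genes of the deposited raw count table. FPKM is a fragment number divided by a length and by the mapped fragments of the library. For genes of at least 600 bases, the length fitted here was the locus length less 200 to 213 bases. Levels of longer genes can be compared per length, but those of loci under 250 bases should not be set beside them. Libraries were made from whole seedlings aged 10 days, 2 of the hon45 mutant and 2 of the Col-0 wild type (WT). All seedlings grew on MS medium with 0.8% agar at 22 °C under long days of 16 h light and 8 h dark, and no other treatment is named. HON4 and HON5, the genes after which the mutant is named, encode nuclear proteins related to linker histones. The labels give neither the hon45 alleles nor whether the libraries of a genotype came from separate plantings, so p-values measure only the spread between these libraries, which may be technical.

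The plastid genome descends from that of a cyanobacterial ancestor and keeps genes for the photosynthetic complexes, the large subunit of Rubisco, and part of the plastid's own transcription and translation machinery. It is transcribed by a bacterial-type polymerase, whose core is plastid-encoded and whose sigma factors are nuclear-encoded, and by phage-type polymerases encoded in the nucleus. Most of its genes lie in operons whose long transcripts are cut and trimmed. In plastids a poly(A) tail marks an RNA for degradation, unlike in the cytosol. Total RNA was used and poly(A) RNA was then selected, so the values below describe the plastid RNA that passed this selection and not the plastid RNA of the seedling.

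The count tables held 53858439 to 63543079 counts per library. These exceed the 24006027 to 28203132 mapped fragments per library implied by the FPKM values, as given below, and the reason was not tested. HON4 had 24.0 and 25.0 FPKM in the hon45 libraries against 64.5 and 67.8 FPKM in the WT libraries, and HON5 had 7.03 and 7.94 FPKM in hon45 against 60.9 and 57.4 FPKM in WT, so the libraries go with their labels. Hon45 replicate 2 stood apart in the plastid genes. There, 44 of the 65 plastid genes with at least 5 FPKM in every library lay under 0.65 times the mean of the other 3 libraries. Of 19356 tested nuclear genes above 0 in every library, 3.14% did so in that library. In the other libraries this held for 0 of the 65 plastid genes in hon45 replicate 1 (1.77% of the nuclear genes), 2 in WT replicate 1 (3.12%) and 0 in WT replicate 2 (1.55%). The level of 0.65 was chosen after the values were seen. In bulk seedlings, fewer cells or plastids, less RNA in each and a smaller part passing the poly(A) selection cannot be told apart. Why this library differs was not tested.

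Of the 133 plastid genes, 72 were above 0 in all 4 libraries, 23 were listed at 0 in some libraries and 38 were listed at 0 in all 4. The 72 are 68 protein genes, 3 rRNA genes and 1 tRNA gene, TRNH, which encodes tRNA-His. The genes listed at 0 in some libraries are 14 protein genes, 1 rRNA gene and 8 tRNA genes, and those at 0 in all 4 are 6 protein genes, 4 rRNA genes and 28 tRNA genes. Among the 72 there was a wide gap in level. In 65 genes, 64 of them protein genes, every library had at least 8.87 FPKM, which is the value of ycf3 in WT replicate 1. The other 7 genes reached at most 0.319 FPKM.

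**Figure D1:**
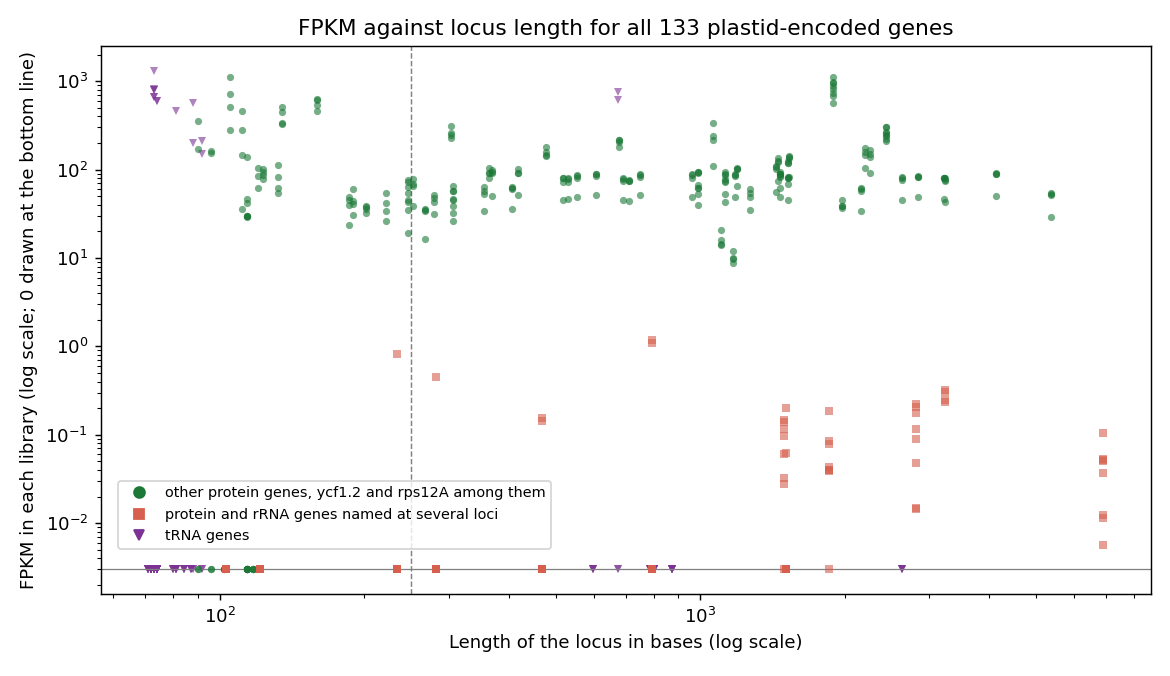
FPKM (log scale) in each of the 4 libraries against the length of the locus in bases (log scale) for all 133 plastid genes; each gene has 4 points, values of 0 are drawn on the bottom line, and the dashed line stands at 250 bases. Protein genes longer than 250 bases form a band, and entries shorter than 250 bases scatter between 0 and more than 1000 FPKM. Of the 25 protein and rRNA entries named at several loci, 23 stay at or under 1.18 FPKM. The exceptions, ycf1.2 and rps12A, are drawn with the other protein genes.

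Of the 25 protein and rRNA entries named at several loci, 23 were at or near 0. The exceptions were ycf1.2 and rps12A, whose values are given below. Entries for tRNA, some of which also share a name, were left out of this count. Among those, TRNL.2 had 456 FPKM in hon45 replicate 1 and TRNI.4 had 605 FPKM in WT replicate 1, each at 0 in the other libraries. The plastid genome carries a large inverted repeat, which holds the rRNA genes and several protein genes in duplicate. The 23 entries had at most 1.18 FPKM in any library, 8 of them at 0 in all 4, 8 at 0 in some and 7 above 0 in all. The ycf1 gene shows the contrast. Its short entry ycf1.1 (Pt 109405 to 112638, a locus listed together with ndhF) had 0.319 and 0.234 FPKM in hon45 against 0.250 and 0.301 FPKM in WT. Its long entry ycf1.2 (Pt 123884 to 129244), which encodes a component of the protein import machinery of the inner envelope, had 53.5 and 29.4 FPKM in hon45 against 52.1 and 53.9 FPKM in WT. The 23S rRNA entry rrn23S.1, from the large ribosomal subunit, had 0.116 and 0.0148 FPKM in hon45 against 0.0479 and 0.204 FPKM in WT. Levels of the duplicated genes, the rRNAs among them, are therefore uncertain; how reads that match several places were handled is not given in the sources used here.

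FPKM steps showed what these low values rest on. For 26 genes without introns by textbook annotation and with a locus of at least 600 bases, every value in each library was a whole number of fragments within 0.1, once the fragment scale of the library had been fitted to the same genes. The implied totals were 26594962 and 26107707 mapped fragments in hon45 against 24006027 and 28203132 in WT. On that scale rrn23S.1 had 8 and 1 fragments in hon45 against 3 and 15 in WT, and ycf2.2, a gene of the inverted repeat, had 9 and 9 fragments in hon45 against 17 and 10 in WT. The 20 well-covered genes of this kind had at least 524 fragments each in any library, the value of rps4 in hon45 replicate 2, which gives a counting error of 4.37%. Together they had 79523 and 44543 fragments in hon45 against 69643 and 83273 fragments in WT. This was 0.299% and 0.171% of the mapped fragments in hon45 against 0.290% and 0.295% in WT. By this share hon45 replicate 1 lay next to both WT libraries, and hon45 replicate 2 lay below all of them.

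Levels were flat across most of the genome, as the plot of FPKM by gene order shows. Among the 52 genes with a locus of at least 250 bases, the median level was 88.5 and 49.2 FPKM in hon45 against 83.6 and 85.0 FPKM in WT. In hon45, 33 and 32 of these 52 genes lay within 1.5-fold of the library's median, and in WT 31 and 32 did. Genes of unlike function shared this level: accD, the carboxyltransferase beta subunit of acetyl-CoA carboxylase, had 89.3 and 49.4 FPKM in hon45 against 89.6 and 89.5 FPKM in WT. rbcL, which encodes the large subunit of Rubisco (Pt 54958 to 56397), had 107 and 55.4 FPKM in hon45 against 103 and 110 FPKM in WT. The highest gene by mean was atpE, at 978 FPKM over the 4 libraries. For scale, the nuclear gene RBCS1A for the small subunit of Rubisco had 7291 and 7085 FPKM in hon45 against 4601 and 6180 FPKM in WT.

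**Figure D2:**
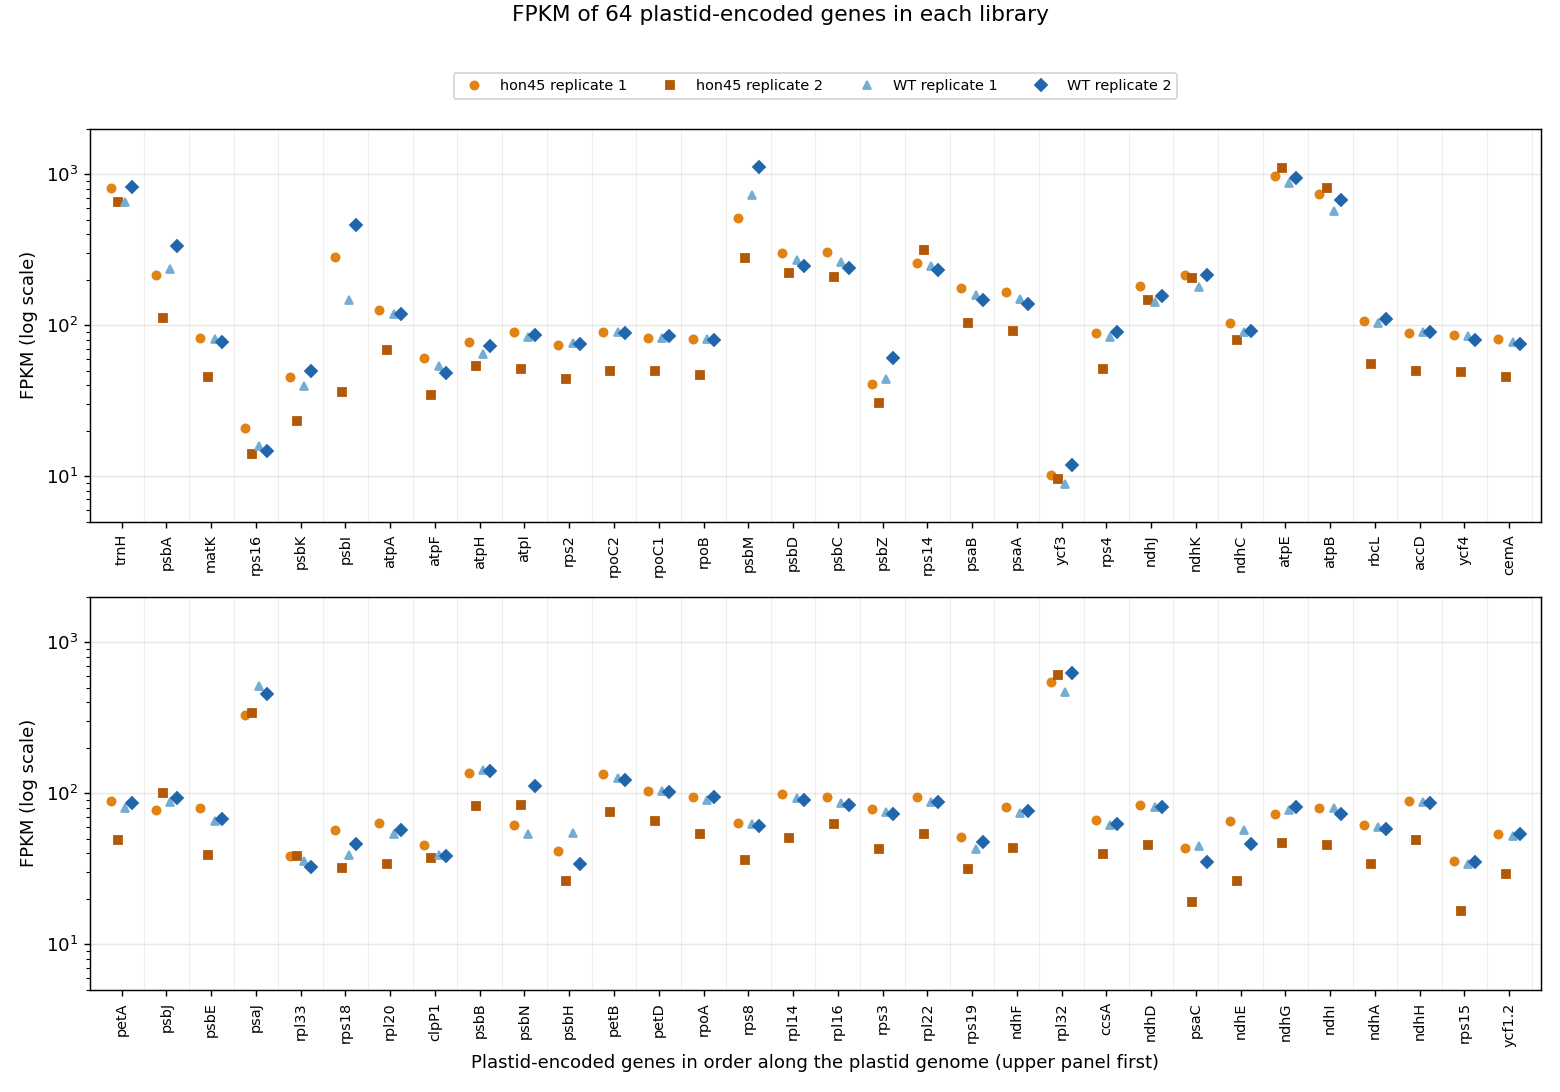
FPKM (log scale) of 64 of the 65 plastid genes with at least 5 FPKM in every library, in order along the plastid genome, with 1 point for each library (hon45 orange, WT blue). Most genes sit near 90 FPKM in hon45 replicate 1 and both WT libraries and lower in hon45 replicate 2, while atpE, atpB and rps14 are highest in hon45 replicate 2.

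None of the 65 plastid genes with at least 5 FPKM in every library passed the test between genotypes. Log2(FPKM + 1) was compared with limma-trend over 19493 genes that had at least 1 FPKM in at least 2 libraries, with Benjamini-Hochberg adjustment over all of them. Of these genes 121 passed at an adjusted p under 0.05, 40 higher and 81 lower in hon45, which is 0.621% (0.205% higher and 0.416% lower). Of the plastid genes, 75 passed the filter on low values. Of these, 10 were at 0 in some library. They were fitted with the rest, so the calls over all genes may include them. Their values are given below without their test results. Of the 65 others, 0 passed, and 6 had an unadjusted p under 0.05 by limma, 5 of them lower (psaJ, psbM, psbZ, psbA and ndhG) and 1 higher (atpB) in hon45. That share is set beside 22.8% of all genes tested. Both hon45 libraries lay below both WT libraries in 9 of the 65 genes, against 24.5% of all genes: psbA, psbB, psbM, psbZ, psaJ, ndhG, rpoC1, rps2 and accD. Both hon45 libraries lay above both WT libraries in 4 of the 65 (atpB, atpE, rps14 and rpl33), against 33.4% of all genes, and in the remaining 52 the genotypes overlapped. With 2 libraries each, the median difference of the 65 genes on the log2(FPKM + 1) scale was −0.33, beside 0.03 over all genes tested, with 53 values below 0 and 12 above.

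This comparison rested on hon45 replicate 2. Without it, 0 of the 65 genes passed beside 0.328% of all genes, the median difference was 0.09, and 52 of the 65 differences were above 0. Without hon45 replicate 1, 14 of the 65 genes passed, all lower in hon45, beside 0.523% of all genes, and the median difference was −0.74. Among the 14 are psbA, psbM, rbcL, psaC, rpoC2, accD, rps15, rpl14, ndhD, ndhE, ndhF, ndhH and ycf1.2. Leaving out WT replicate 1 gave 3 calls (psbM, psbZ and psaJ, lower in hon45) beside 1.91% of all genes. Leaving out WT replicate 2 gave 5 calls (psbM, psaJ and psbH lower, atpB and rpl32 higher in hon45) beside 20.2% of all genes. In each of these fits the lone library of a genotype is assumed to vary like the other group.

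**Figure D3:**
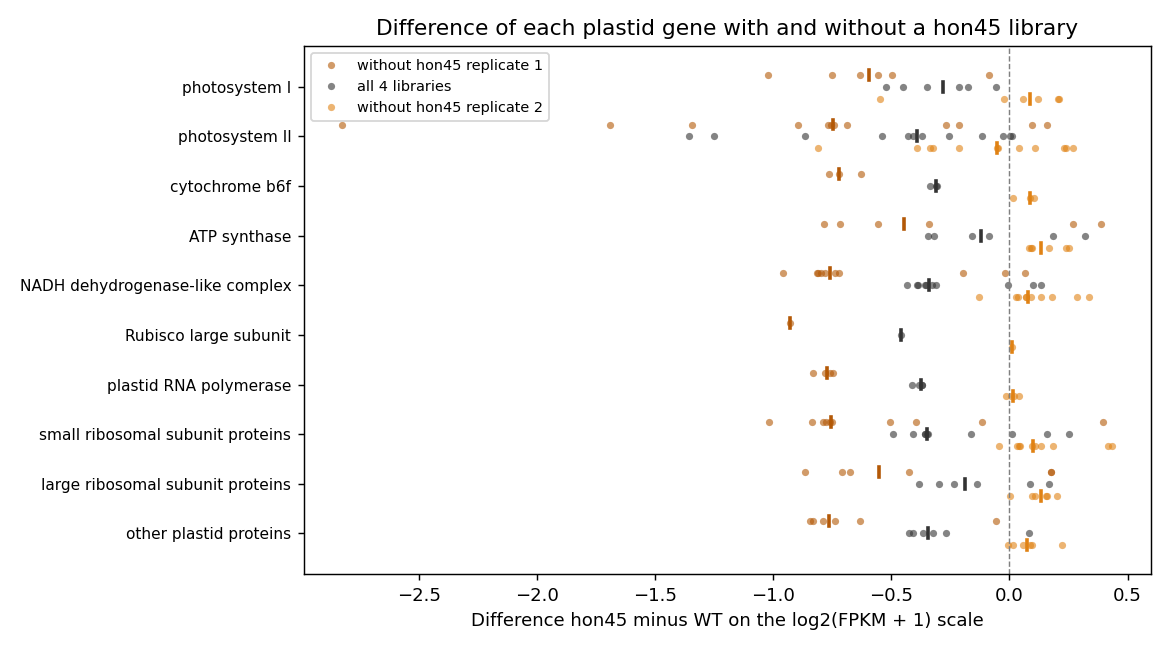
Difference hon45 minus WT on the log2(FPKM + 1) scale for 64 plastid protein genes by function, with all 4 libraries, without hon45 replicate 1 and without hon45 replicate 2; points are genes and upright bars are medians. Every group median lies below 0 with all 4 libraries; without hon45 replicate 2 the medians lie between −0.05 and 0.13, and without hon45 replicate 1 between −0.93 and −0.45.

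The same picture held as ratios between libraries. Over the 52 longer genes, hon45 replicate 2 had a median of 0.589 times the mean of the other 3 libraries, with quartiles of 0.562 and 0.668. Hon45 replicate 1 had a median of 1.07 times the WT mean, with a range of 0.751 to 1.37. WT replicate 2 had a median of 0.996 times WT replicate 1, with a range of 0.808 to 1.42. The distance of hon45 replicate 2 from the rest was thus larger than that between the WT libraries for most genes, 38 of the 52 lying under 0.65. It was not shared by all: 10 of the 52 lay at 0.8 or above, and 4 above 1.

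**Figure D4:**
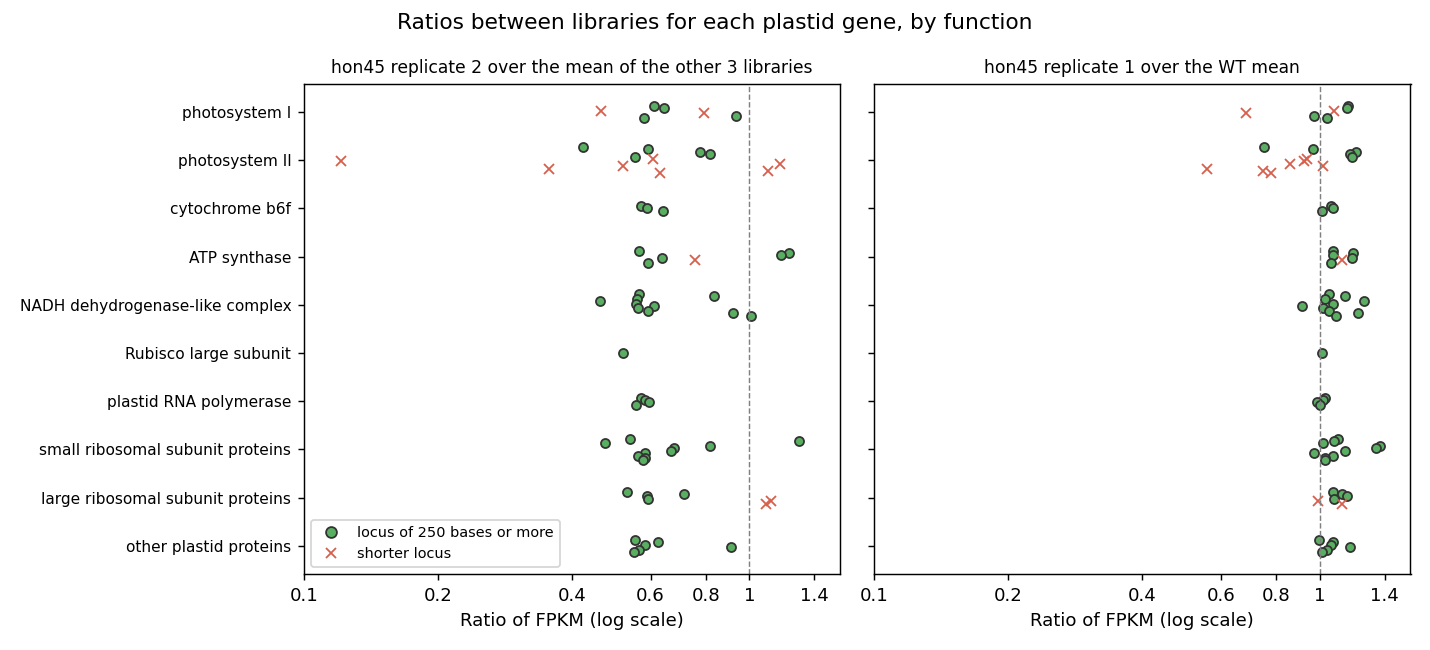
Ratio of FPKM (log scale) for each of 64 plastid protein genes by function: hon45 replicate 2 over the mean of the other 3 libraries (left) and hon45 replicate 1 over the WT mean (right); circles are loci of 250 bases or more, crosses shorter ones. Most circles in the left panel stand near 0.59, with atpB, atpE and rps14 to the right of 1, and circles in the right panel stand near 1.07.

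Photosystem II, which splits water, has 15 plastid entries, of which 12 had at least 5 FPKM in every library; 0 passed, 2 differences were above 0 and 10 below, with a median of −0.39 (−0.05 without hon45 replicate 2). psbA (ATCG00020; Pt 383 to 1444) encodes D1, the reaction-centre protein that is replaced fastest in the light. It had 215 and 111 FPKM in hon45 against 237 and 336 FPKM in WT, resting on 4890 and 2457 fragments in hon45 against 4913 and 8102 fragments in WT. Both hon45 libraries lay below both WT libraries, and the WT libraries themselves differed 1.42-fold. The log2 difference was −0.87 (SE 0.30, adjusted p = 0.161 by limma). psbM, for a small subunit, has a locus of only 105 bases (Pt 28707 to 28811). It had 513 and 278 FPKM in hon45 against 726 and 1111 FPKM in WT, without overlap, and a log2 difference of −1.25 (SE 0.30, adjusted p = 0.101 by limma). Leaving out hon45 replicate 2 reduced this to −0.81.

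Most other photosystem II genes overlapped between the genotypes, but psbB and psbZ did not. psbD and psbC, for the D2 protein and the inner antenna protein CP43, share a listed locus (Pt 32711 to 35141), so part of their reads may be counted for either. psbD had 303 and 222 FPKM in hon45 against 269 and 246 FPKM in WT, and psbC had 303 and 208 FPKM in hon45 against 263 and 240 FPKM in WT. In both genes the hon45 libraries enclosed the WT libraries. psbB, for the antenna protein CP47, had 136 and 82.4 FPKM in hon45 against 143 and 139 FPKM in WT, a log2 difference of −0.41 (SE 0.21, adjusted p = 0.281 by limma). psbZ, a small subunit of 189 bases, had 40.4 and 30.3 FPKM in hon45 against 43.8 and 60.2 FPKM in WT, without overlap and with an adjusted p of 0.155 by limma. The widest spread was in psbI, a 111-base gene, with 282 and 36.1 FPKM in hon45 against 147 and 464 FPKM in WT. Its WT libraries alone differed 3.16-fold. Of the other genes listed here, psbE, for the alpha subunit of cytochrome b559, had 79.3 and 39.2 FPKM in hon45 against 65.9 and 67.9 FPKM in WT. psbJ had 77.6 and 101 FPKM in hon45 against 86.9 and 93.4 FPKM in WT, and psbN had 61.8 and 83.0 FPKM in hon45 against 54.0 and 111 FPKM in WT. Hon45 replicate 2 was the lowest library in psbE and the highest in psbJ.

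Photosystem I, which reduces ferredoxin, has 7 entries including its assembly factors ycf3 and ycf4; of the 6 at 5 FPKM or more, 0 passed, and all 6 differences were below 0, with a median of −0.28 (0.09 without hon45 replicate 2). The reaction-centre genes psaA and psaB lie side by side. psaA had 166 and 91.9 FPKM in hon45 against 149 and 137 FPKM in WT, and psaB had 177 and 104 FPKM in hon45 against 159 and 147 FPKM in WT. Hon45 replicate 1 was the highest and hon45 replicate 2 the lowest library for both genes. psaJ, a small subunit (ATCG00630; Pt 66929 to 67063), did not follow this. It had 330 and 341 FPKM in hon45 against 514 and 452 FPKM in WT, and both hon45 libraries lay below both WT libraries. Its log2 difference was −0.52 (SE 0.09, unadjusted p = 0.000723, adjusted p = 0.0719 by limma), the smallest adjusted p among the 65 plastid genes. Without hon45 replicate 2 the difference was −0.55, and without hon45 replicate 1 it was −0.50. The locus of psaJ is 135 bases. Its value was 25 times the smallest value of any gene of that length in hon45 replicate 1, 55 times in WT replicate 1 and 9.5 times, not a whole step, in hon45 replicate 2. In WT replicate 2 no other gene of that length was above 0, so the step is not known there. The smallest values differed, at 13.2 and 35.9 FPKM in hon45 and 9.35 FPKM in WT replicate 1. If 1 step is near 1 fragment, the counting error of psaJ may exceed its SE of 0.09, and its p-values by limma may be too small. psaC, for the subunit that binds the terminal iron-sulfur clusters, had 43.2 and 19.1 FPKM in hon45 against 44.7 and 35.1 FPKM in WT. ycf3 was the lowest protein gene of the set, with 10.1 and 9.64 FPKM in hon45 against 8.87 and 11.9 FPKM in WT.

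The cytochrome b6f complex, which carries electrons between the photosystems, has 6 entries, of which petA, petB and petD had at least 5 FPKM in every library. None of the 3 passed, and their differences ran from −0.34 to −0.31. petA, for cytochrome f, had 88.6 and 48.7 FPKM in hon45 against 80.0 and 86.8 FPKM in WT. petB, for cytochrome b6, had 134 and 75.2 FPKM in hon45 against 126 and 123 FPKM in WT. In both, hon45 replicate 2 was the lowest library and hon45 replicate 1 the highest.

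ATP synthase genes split into 2 kinds. All 6 plastid entries had at least 5 FPKM in every library, 0 passed, 2 differences were above 0 and 4 below, with a median of −0.12 (0.13 without hon45 replicate 2). atpB and atpE, for the beta and epsilon subunits of the catalytic head, share a listed locus (Pt 52265 to 54156) and were the highest protein genes of at least 250 bases. atpB had 741 and 815 FPKM in hon45 against 573 and 677 FPKM in WT, a log2 difference of 0.32 (SE 0.11, adjusted p = 0.156 by limma). atpE had 978 and 1103 FPKM in hon45 against 879 and 951 FPKM in WT, a difference of 0.18 (SE 0.10, adjusted p = 0.292 by limma). In both genes each hon45 library lay above each WT library, and hon45 replicate 2 was the highest of the 4. atpA, for the alpha subunit, lies in the other ATP synthase operon and had 127 and 68.6 FPKM in hon45 against 118 and 119 FPKM in WT. Hon45 replicate 2 was here the lowest library, at 0.565 times the mean of the others, against 1.23 for atpB. The genes atpI, atpH and atpF of the same operon as atpA had ratios of 0.592, 0.754 and 0.635. The listed length of 1892 bases covers both atpB and atpE.

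The NADH dehydrogenase-like complex, which takes part in cyclic electron flow, has 12 entries, of which 10 had at least 5 FPKM in every library; 0 passed, 2 differences were above 0 and 8 below, with a median of −0.34 (0.08 without hon45 replicate 2). Here too neighbours stood together. The adjacent genes ndhC, ndhK and ndhJ (Pt 48677 to 50363) had ratios of hon45 replicate 2 to the other libraries of 0.834, 1.01 and 0.919. ndhK had 215 and 205 FPKM in hon45 against 180 and 214 FPKM in WT, resting on 2693 and 2492 fragments in hon45 against 2064 and 2844 fragments in WT. ndhJ had 182 and 147 FPKM in hon45 against 143 and 156 FPKM in WT. In these genes hon45 replicate 2 lay within or close to the range of the other libraries. The genes ndhD, ndhE, ndhG and ndhH of the small single-copy region had ratios of 0.463 to 0.611. ndhH, for example, had 88.4 and 49.1 FPKM in hon45 against 87.7 and 85.8 FPKM in WT, and its log2 difference was −0.39 (SE 0.24, adjusted p = 0.355 by limma). ndhE had the lowest ratio of the complex, with 65.2 and 26.0 FPKM in hon45 against 57.2 and 46.2 FPKM in WT. ndhG was the only one of the 10 without overlap, with 72.4 and 47.0 FPKM in hon45 against 77.6 and 80.6 FPKM in WT, a log2 difference of −0.43 (SE 0.18, adjusted p = 0.217 by limma).

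In hon45 replicate 2 the polymerase genes lay near the median ratio of the longer genes, and rbcL lay below their lower quartile of 0.562. rbcL had a ratio of 0.519 in hon45 replicate 2, and 1.01 in hon45 replicate 1 over the WT mean. Its log2 difference was −0.46 (SE 0.26, adjusted p = 0.335 by limma), and 0.01 without hon45 replicate 2. The 4 core subunits of the plastid-encoded polymerase had levels within a narrow range in each library. rpoC2 had 90.1 and 49.9 FPKM in hon45 against 90.5 and 88.8 FPKM in WT, rpoA had 94.9 and 53.3 FPKM in hon45 against 90.7 and 94.0 FPKM in WT, and rpoC1 had 82.5 and 49.4 FPKM in hon45 against 82.7 and 84.3 FPKM in WT. None of the 4 passed, and their log2 differences ran from −0.41 to −0.37. The rpoB, rpoC1, rpoC2 and accD genes are textbook targets of the nuclear-encoded polymerase. In hon45 replicate 2 these 4 had ratios of 0.553 to 0.594 to the other libraries, which lies within the quartiles of the longer genes for rpoB and rpoC1 and just below the lower quartile for rpoC2 and accD.

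Of the 15 entries for small ribosomal subunit proteins, 10 had at least 5 FPKM in every library; 0 passed, 3 differences were above 0 and 7 below, with a median of −0.35 (0.10 without hon45 replicate 2). rps14 (Pt 36938 to 37240) was the highest, with 257 and 315 FPKM in hon45 against 247 and 231 FPKM in WT. Each hon45 library lay above each WT library, with a log2 difference of 0.25 (SE 0.11, adjusted p = 0.232 by limma). Its ratio of 1.29 in hon45 replicate 2 was the highest of all 65 genes, although psaB next to it had 0.644. rps4 had 89.2 and 51.1 FPKM in hon45 against 83.7 and 89.8 FPKM in WT, with hon45 replicate 2 the lowest library. rps15 had the lowest ratio of this group, 0.475, with 35.4 and 16.6 FPKM in hon45 against 34.2 and 35.1 FPKM in WT. rps16, a gene with an intron, was among the lowest, with 20.9 and 13.9 FPKM in hon45 against 15.8 and 14.6 FPKM in WT.

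Of the 11 entries for large ribosomal subunit proteins, 6 had at least 5 FPKM in every library; 0 passed, 2 differences were above 0 and 4 below, with a median of −0.19 (0.13 without hon45 replicate 2). rpl32, a gene of 159 bases, had the highest FPKM, a value not to be set beside those of longer genes. It had 543 and 612 FPKM in hon45 against 466 and 630 FPKM in WT, and its genotypes overlapped. rpl33, of 201 bases, had 38.2 and 38.7 FPKM in hon45 against 35.7 and 32.5 FPKM in WT, without overlap, a log2 difference of 0.17 (SE 0.09, adjusted p = 0.286 by limma). rpl14 and rpl16 lie in the large ribosomal protein operon. rpl14 had 98.6 and 50.2 FPKM in hon45 against 93.7 and 90.7 FPKM in WT, and rpl16 had 94.4 and 62.7 FPKM in hon45 against 85.7 and 83.5 FPKM in WT. In both, hon45 replicate 2 was the lowest library.

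The other plastid proteins have 11 entries, 6 of them with at least 5 FPKM in every library; 0 passed, 1 difference was above 0 and 5 below, with a median of −0.34 (0.07 without hon45 replicate 2). matK, the intron maturase encoded within a tRNA intron, had 82.2 and 45.4 FPKM in hon45 against 81.3 and 76.8 FPKM in WT. cemA, for an envelope membrane protein, had 81.0 and 45.2 FPKM in hon45 against 77.5 and 74.6 FPKM in WT. clpP1, the proteolytic subunit of the Clp protease, had 45.4 and 37.2 FPKM in hon45 against 39.2 and 38.4 FPKM in WT. Hon45 replicate 2 stood well below the rest in matK and cemA, and close to both WT libraries in clpP1.

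Several short genes were at 0 in some libraries and high in others. Of the 23 genes listed at 0 in some libraries, 14 are protein genes, and those that are not duplicated have loci of 90 to 120 bases. petN, a small subunit of cytochrome b6f, was at 0 in hon45 replicate 1 and had 353 FPKM in hon45 replicate 2, against 173 FPKM in WT replicate 1 and 0 in WT replicate 2. petL had 161 FPKM in hon45 replicate 1 and 0 in hon45 replicate 2, against 0 in WT replicate 1 and 154 FPKM in WT replicate 2. psbF, for the beta subunit of cytochrome b559, had 62.3 FPKM and 0 in hon45 against 103 and 84.6 FPKM in WT. In petN and petL each genotype held both a 0 and a high value, and in psbF both hon45 libraries lay below both WT libraries. No plastid gene carried a failed status in any library. A 0 may still be a failed estimate, so no fold change or test is given for such genes.

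The steps of these values were large. In WT replicate 1 the 114-base genes rps12A, psaI and petG had the same value of 30.1 FPKM. In hon45 psaI had 138 FPKM and 0, rps12A had 0 and 29.4 FPKM, and petG was at 0 in both libraries. In WT replicate 2 petG had 41.9 FPKM, while rps12A and psaI were at 0, so both hon45 libraries lay below both WT libraries in petG. rpl36 was above 0 in hon45 replicate 1 alone, at 46.0 FPKM. The remaining protein genes at 0 in some libraries are duplicated: rpl23.1 was above 0 in WT replicate 1 alone (0.454 FPKM), as was rps7.2 (0.155 FPKM), and ycf15.1 (0.815 FPKM) and rps7.1 (0.144 FPKM) were above 0 in hon45 replicate 1 alone. rps12B had 1.18 FPKM and 0 in hon45 against 0 and 1.097 FPKM in WT, rpl2.2 had 0 and 0.0626 FPKM in hon45 against 0.1999 FPKM and 0 in WT, and ndhB.1 had 0.0391 and 0.0400 FPKM in hon45 against 0.0429 FPKM and 0 in WT. The rRNA entry rrn16S.1 had 0.117 FPKM and 0 in hon45 against 0.0323 and 0.0276 FPKM in WT, which is 4 and 0 fragments in hon45 against 1 and 1 in WT.

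Of the 37 transfer RNA entries, 28 were at 0 in all 4 libraries. Some of the others had values among the highest of the plastid genes. TRNH had 806 and 659 FPKM in hon45 against 655 and 823 FPKM in WT, with overlap between the genotypes and a log2 difference of −0.01 (SE 0.14, adjusted p = 0.967 by limma). In hon45 replicate 1, TRNT.2 had exactly the same value as TRNH, and both are 73 bases long. In every library TRNH had the smallest value above 0 of any gene of that length, so its level may rest on 1 step. The SE and adjusted p of TRNH by limma may then say little about the gene. TRNE was above 0 in WT replicate 1 alone, where its 1311 FPKM was 2 times the value of TRNH. TRNV.1 had 749 and 609 FPKM in hon45 against 0 in both WT libraries, and TRNS.2 had 213 and 151 FPKM in hon45 against 0 in both WT libraries. TRNS.1 had 563 FPKM and 0 in hon45 against 202 FPKM and 0 in WT. The hon45 libraries thus lay above the WT libraries in TRNV.1 and TRNS.2 and overlapped with them in TRNS.1. Entries for tRNA summed to 3594 and 1419 FPKM in hon45 against 3378 and 823 FPKM in WT, beside 12979 and 8680 FPKM in hon45 and 12287 and 10750 FPKM in WT over all plastid genes. The tRNA sum was higher in replicate 1 than in replicate 2 of both genotypes.

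Summed over all 133 genes, plastid FPKM was 1.37% and 0.907% of the total in hon45 against 1.28% and 1.12% in WT. The mean was 1.14% ± 0.326 in hon45 and 1.199% ± 0.108 in WT (SD, n = 2 each). The difference of −0.0619 percentage points did not exceed the spread between replicates (exact permutation test, two-sided p = 1, where 2 against 2 libraries cannot go below 0.333). Without hon45 replicate 2 the difference was 0.169 percentage points, without hon45 replicate 1 it was −0.292, without WT replicate 1 it was 0.0147 and without WT replicate 2 it was −0.139. In whole fragments of the 20 well-covered genes, the difference was −0.0579 percentage points. The other organelle gave almost nothing: 146 mitochondrial genes summed to 1.91 and 1.14 FPKM in hon45 against 2.37 and 2.61 FPKM in WT, and 140 of them were at 0 in all 4 libraries.

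Nuclear genes that act with the plastid genome did not share the low values of hon45 replicate 2. The 30 genes listed are 8 for phage-type polymerases and sigma factors, 6 for chloroplast RNA degradation and stability, and 16 for photosynthetic subunits. In hon45 replicate 2 they had 0.996 to 1.46 times the mean of the other 3 libraries, with a median of 1.17, where the 65 plastid genes had a median of 0.591. The lowest library for these genes was WT replicate 1, with a median of 0.756. By limma 0 of the 30 passed beside 0.621% of all genes, and 15 had an unadjusted p under 0.05, beside 22.8% of all genes. On the raw counts, the edgeR quasi-likelihood test called 5 of the 30 at an adjusted p under 0.05, all higher in hon45, beside 3.93% of all genes it tested, and DESeq2 called 7 beside 6.07%. The median difference was 0.38 over the polymerase and sigma factor genes, 0.37 over the RNA degradation genes and 0.21 over the photosynthesis genes on the log2(FPKM + 1) scale. Leaving out WT replicate 1 gave 3 calls beside 1.91% of all genes, and leaving out WT replicate 2 gave 22 beside 20.2% of all genes, so here too the calls depended on which library was used.

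By limma, SIGA and RNJ were nearest to the threshold among the 30 nuclear genes. SIGA, a sigma factor of the plastid polymerase, had 39.8 and 41.0 FPKM in hon45 against 23.8 and 30.4 FPKM in WT, with a log2 difference of 0.57 (SE 0.12, adjusted p = 0.0912 by limma). RNJ, the chloroplast ribonuclease J, had 4.75 and 4.998 FPKM in hon45 against 2.86 and 2.88 FPKM in WT, with a log2 difference of 0.60 (SE 0.11, adjusted p = 0.0735 by limma). In both genes each hon45 library lay above each WT library. They are named here after their values were seen. On the raw counts SIGA and RNJ passed by edgeR (adjusted p = 0.010 and 0.0044) and by DESeq2 (adjusted p = 0.0020 and 0.0014). The photosynthesis genes RBCS3B and ATPC1 also passed by edgeR and by DESeq2. SIGB passed by edgeR alone, and CSP41B, RBCS1A and ATPD passed by DESeq2 alone. PNP, the chloroplast polynucleotide phosphorylase that adds and removes tails on plastid RNA, had 10.0 and 10.98 FPKM in hon45 against 7.76 and 8.94 FPKM in WT, and an adjusted p of 0.173 by limma.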

How the data were processed

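FPKM values were deposited by the authors as 1 table per library, with a TAIR10 locus and a status for each gene, per the file headers. Raw whole-number counts per gene were deposited by the authors as 1 table of the 4 libraries. HISAT2, edgeR, Bowtie2 and deepTools are named in the submitters' processing notes, with the TAIR10 build and no roles; the program that made the FPKM values is not given in the sources used here. Printed starts are the listed ones plus 1, on the plastid chromosome (Pt), and the tables list no exons. Depth limits short loci most.

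Log2(FPKM + 1) was compared between hon45 and WT with limma-trend (limma 3.58.1, R 4.3.3) over genes with at least 1 FPKM in at least 2 libraries and a usable status in all 4, which excluded 3 genes. Fold changes on this scale are understated for low genes. SE is limma's. Fragments were recovered as FPKM times locus length less a fitted offset of 200 to 213 bases. edgeR 4.0.16 (filterByExpr, TMM, quasi-likelihood test) and DESeq2 1.42.0 were run on the counts as alternatives for nuclear genes. Only the limma-trend fit of all 4 libraries was tested on simulated data, with noise drawn independently for each gene. Named genes are the 3 highest of each group, the 6 largest differences in each direction, protein and rRNA genes at 0 in some libraries, rbcL and psbA, with 1 gene not reported here; others served as neighbours or examples chosen after their values were seen. The plastid genes and gene lists were chosen with earlier results of these data known. The 3 chromatin immunoprecipitation samples were not used here.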

Additional observations from a re-analysis of the deposited data

How the results depend on the processing

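Counts of the 65 plastid genes passing the test stayed at 0 under log2(FPKM + 0.1), log2(FPKM + 10), each filter and each scaling. They also stayed at 0 for limma without a trend and with longer genes only. They were 1 with robust limma (psaJ, adjusted p = 0.0416 by limma), 1 at an adjusted p under 0.1 and 0 to 14 with a library left out. Calls over all genes were 0 without a filter (4477 at an unadjusted p under 0.05 by limma), 54 with quantile normalisation, 53 without a trend, 303 with robust limma, 737 at an adjusted p under 0.1 and 64 to 3932 with a library left out. The plastid median was −0.736 to 0.0894 and the difference in share −0.292 to 0.169 with a library left out. With plastid genes scaled to their own median ratio, the plastid median was −0.0033, with 31 differences above 0 and 34 below, and 0 calls by limma.

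Replicate numbers are shared between genotypes, but the labels do not say that they pair the samples, and deviations of replicates numbered alike correlated at −0.04 over all tested genes and −0.17 over the plastid genes. With a replicate block, 2 of the 65 plastid genes passed (psbM, adjusted p = 0.0352, and psaJ, adjusted p = 0.0333, by limma). So did 727 of all genes (3.73%) and 3 of the nuclear partners. Nuclear partners called were 5 by edgeR (3.93% of all genes), 7 by DESeq2 (6.07%), 11 by edgeR with the replicate block (6.86%) and 0 to 22 with a library left out. Settings chosen after the values were seen are the longer genes, the fragments, and leaving out libraries or blocking the counts for nuclear partners. The causes were not tested. With 2 libraries a genotype, 1 library can decide a value. Levels of genes under 250 bases rest on coarser steps in many cases, and those of duplicated genes near 0 and of genes at 0 are uncertain.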
